A study of Homo sapiens with 6 samples.

Results

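The genes described here are 10 NF-kappaB target genes and subunits, LCN2, IL1A, BIRC3, CXCL8, CXCL1, NFKBIA, TNFAIP3, ICAM1, RELB and NFKB2, out of 28491 genes in the count table. LCN2, IL1A and BIRC3 were picked because they were among the higher genes of the study in the contrast described below, so their differences are given as a description with no test. The other 7 were picked by name as genes of the same pathway. All 10 were matched by gene symbol and all 10 passed the filter on low counts, IL1A through the group in which it was high.

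RNA was measured in HCT116, a human colorectal carcinoma cell line, as 3 libraries of cells transfected with a control plasmid (NC) and 3 libraries of cells transfected with a plasmid that expresses RBM47 (RBM47-OE), all 48 h after transfection. RBM47 is an RNA-binding protein, and no stimulus of NF-kappaB is named for either group. The sample labels name the plasmid pcDNA3.1-3xFlag-RBM47 and the medium DMEM, whereas the methods of the study name another vector and McCoy's medium. Nothing in the labels says that the libraries of a group came from separate cultures, so the p-values measure only the spread between these libraries.

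NF-kappaB is a family of transcription factor dimers built from RELA, RELB, REL and the products of NFKB1 and NFKB2. In resting cells, inhibitors such as the NFKBIA product hold the dimers in the cytoplasm, and signals from receptors for tumour necrosis factor, interleukin-1 or microbial products release them through the IKK kinase complex. The dimers bind kappaB sites near genes of inflammation and cell survival, among them their own inhibitors, and in intestinal epithelium the pathway is known for linking inflammation to tumour growth. Many of the target mRNAs are short-lived and carry AU-rich elements in the 3' UTR.

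Promoter windows, from 250 bases before to 50 bases after each RefSeq start on GRCh38.p14, were found for 9 of the 10 genes in 12 windows, with none for RELB. They are shown because kappaB sites are what NF-kappaB dimers bind. The 10 genes were picked as NF-kappaB targets and subunits, a status that can itself rest on such sites. The shares below are therefore a description and not a test. The kappaB consensus, searched on both strands, was in 7 of the 12 windows and in 5.91% of 35116 windows of all genes. The motif GGAATTTCC, searched on both strands and able to overlap the consensus, was chosen after the windows were seen and was in 4 of the 12 windows against 0.461% of all windows. Either motif was in 8 of the 9 genes (9 of 12 windows, against 6.12% of all windows), and the IL1A windows held neither. Stretches of 100 bases holding a match follow (30 bases where a longer stretch would reach an annotated exon), read 5′ to 3′ on the strand of the gene, with the matched letters in capitals.
LCN2 chr9:128149268-128149297 (plus): cagcactccgGGAATGTCCCtcactctccc
BIRC3 chr11:102317272-102317371 (plus): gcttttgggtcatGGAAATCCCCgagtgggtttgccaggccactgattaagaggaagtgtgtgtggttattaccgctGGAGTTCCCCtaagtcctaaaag
CXCL8 chr4:73740467-73740496 (plus): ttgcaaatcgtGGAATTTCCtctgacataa
CXCL1 chr4:73869269-73869368 (plus): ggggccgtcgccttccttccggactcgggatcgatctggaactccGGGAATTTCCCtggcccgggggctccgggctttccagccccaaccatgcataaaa
NFKBIA chr14:35404776-35404875 (minus): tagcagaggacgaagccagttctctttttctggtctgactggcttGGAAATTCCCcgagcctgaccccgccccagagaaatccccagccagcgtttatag
TNFAIP3 chr6:137867188-137867217 (plus): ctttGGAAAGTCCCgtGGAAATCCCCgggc
ICAM1 chr19:10270888-10270987 (plus): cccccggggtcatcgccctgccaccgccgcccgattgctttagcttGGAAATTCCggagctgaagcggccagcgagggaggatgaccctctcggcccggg
NFKB2 chr10:102395674-102395703 (plus): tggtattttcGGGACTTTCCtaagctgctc

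The match began 175 bases before the RefSeq start in LCN2, and 199 and 135 bases before it in BIRC3. It began 91 bases before the start in CXCL8, 81 in NFKBIA and 186 in ICAM1. It began 79 and 78 bases before the start in CXCL1, where the matches overlap, and 67 and 55 in TNFAIP3. Of the 3 NFKB2 windows 1 held no match, and the stretch shown begins its match 21 bases before the start of another. LCN2 and BIRC3, which were high in RBM47-OE, held a match to the consensus, and so did NFKBIA and TNFAIP3, for which no difference was called. A match is a description of letters and not a bound site.

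The targeted gene separated the groups, with RBM47 at 1.91, 2.33 and 1.94 FPKM in NC and at 131.3, 130.41 and 127.04 FPKM in RBM47-OE (log2 fold change 5.90, standard error 0.096). Total counts per library were between 26792409 and 35477983. The RBM47-OE libraries differed from each other more than the NC libraries did, with a chi-square per degree of freedom between pairs of 8.95 to 19.5 against 3.38 to 4.79. Of 10 colorectal epithelial marker genes all 10 had counts, with a summed level of 2005 to 2183 FPKM in NC and 1855 to 2104 in RBM47-OE. The keratin genes KRT8, KRT18 and KRT19 had the highest levels in this sum. VIL1 (0.02 to 0.09 FPKM over all libraries) and KRT20 (0.20 to 0.92 FPKM) were low. Summed leukocyte markers were at 0.65 to 0.89 FPKM in NC and 0.36 to 0.40 in RBM47-OE (8 of 10 in the table, with CD3E and MS4A1 at 2 counts or fewer in each library). Summed fibroblast markers were at 1.51 to 1.77 and 1.34 to 1.78 FPKM (3 of 6 in the table), and summed endothelial markers at 0.15 to 0.20 and 0.11 to 0.18 (4 of 5 in the table). The part of these levels in the results was not tested.

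Across 16233 tested genes the log2 fold change followed exonic GC content, with a Spearman's rho of -0.63 (across genes, which are not independent replicates). The fold changes of the 10 genes are therefore given also with an offset that removes, in each library, the trend of the counts with GC content, together with any real change that follows it. Genes rich in A and T were on the higher side without the offset, and exonic GC content of the 10 genes ran from 31.6% in CXCL8 to 63.2% in RELB.

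In levels per length, NFKB2, NFKBIA and RELB were the highest and CXCL1 and IL1A the lowest of the 10 genes in both groups. In NC, NFKB2 was at 29.1 FPKM on average, above 92.1% of 16368 protein-coding genes, followed by NFKBIA at 8.18 (74.8%) and RELB at 5.15 (65.2%). ICAM1 (1.94), LCN2 (1.89) and CXCL8 (1.73) came next, and the ranges of neighbours in this order overlapped. TNFAIP3 at 1.10, BIRC3 at 0.957, CXCL1 at 0.633 and IL1A at 0.05 FPKM followed, with no overlap between neighbours, and IL1A was above 16.7% of protein-coding genes. In RBM47-OE the order began with NFKB2 (27.3), NFKBIA (7.78) and RELB (4.29), and LCN2 came next at 3.98 FPKM, above ICAM1, with a range that overlapped that of RELB. BIRC3 (1.56) lay between ICAM1 (1.83) and CXCL8 (1.26), and its range overlapped both.

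**Figure D1:**
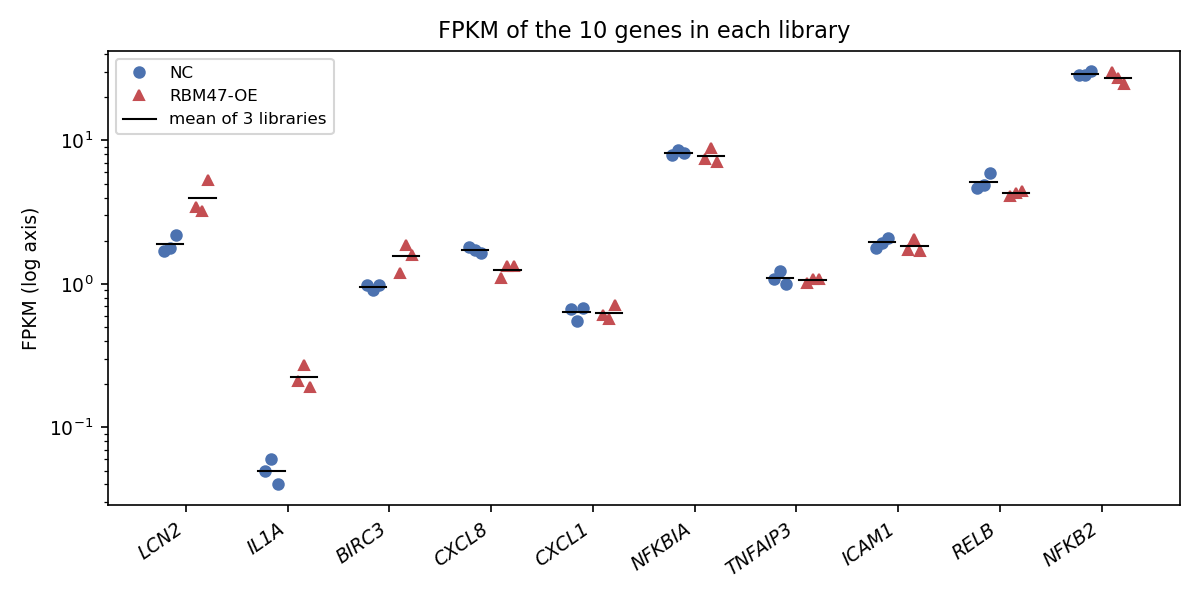
FPKM (log axis) of the 10 genes in each NC library (circles) and RBM47-OE library (triangles), with lines at the mean of 3 libraries. The triangles of LCN2, IL1A and BIRC3 lie above their circles, those of CXCL8 and RELB lie below, and the other 5 genes overlap.

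Among the secreted proteins, LCN2 encodes lipocalin 2, which binds the iron carriers of bacteria and is released by inflamed epithelium. It lies on GRCh38 (chromosome 9, 128149071 to 128153453, plus strand, GENCODE 44, as for the other genes). LCN2 was at 1.70, 1.79 and 2.18 FPKM in the NC libraries and at 3.41, 3.20 and 5.33 FPKM in the RBM47-OE libraries. The lowest RBM47-OE library was above the highest NC library, and RBM47-OE replicate 3 was the highest of all. In bulk RNA, more cells that express a gene and more RNA per cell cannot be told apart, here or below. The fold in counts was 2.0 (95% interval 1.55 to 2.59, log2 fold change 1.00, standard error 0.18). Because LCN2 was chosen on this contrast, the interval describes the spread between libraries and is not a test. The fold rested on 83, 114 and 116 counts in NC and 203, 177 and 273 in RBM47-OE. The log2 fold change was 0.74 without RBM47-OE replicate 3 and 1.19 with the GC offset (exonic GC content 58.0%).

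IL1A encodes interleukin-1 alpha, a ligand of the interleukin-1 receptor that itself activates NF-kappaB (chromosome 2, 112773925 to 112784493, minus strand). Its FPKM was 0.05, 0.06 and 0.04 in NC and 0.21, 0.27 and 0.19 in RBM47-OE, so that the groups did not overlap and both were low. The counts were 3, 5 and 3 in NC and 16, 19 and 12 in RBM47-OE. Summed over libraries, 47 counts against 11 gave a ratio of 4.07 with an exact Poisson interval of 2.08 to 8.70, which covers counting error only. The fitted log2 fold change was 1.99 (standard error 0.52) and 1.68 with the GC offset (38.7% GC).

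CXCL8, which encodes interleukin-8, a chemokine that attracts neutrophils, was lower in RBM47-OE (chromosome 4, 73740519 to 73743716, plus strand). It was at 1.82, 1.71 and 1.65 FPKM in NC and at 1.10, 1.33 and 1.34 FPKM in RBM47-OE, and every RBM47-OE library was below every NC library. The counts were 125, 153 and 123 in NC and 92, 103 and 96 in RBM47-OE. CXCL8 fell by 0.53 in log2 (standard error 0.17, adjusted p = 0.014 in edgeR's quasi-likelihood test, Benjamini-Hochberg over 16260 genes). An exact two-sided permutation test on FPKM gave p = 0.10, the smallest that 3 against 3 libraries allow. With the GC offset the difference was larger, at -0.83 (adjusted p = 0.0012 in edgeR), and CXCL8 has the lowest GC content of the 10 genes. Without NC replicate 1 it did not pass the threshold (-0.49, adjusted p = 0.060 in edgeR).

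CXCL1, another neutrophil chemokine, whose promoter stretch above holds both motifs, was not called (chromosome 4, 73869393 to 73871308, plus strand). Its FPKM was 0.67, 0.55 and 0.68 in NC and 0.61, 0.57 and 0.71 in RBM47-OE, and the groups overlapped. Each library held 27 to 31 counts, and the fold was 0.949 with a 95% interval of 0.613 to 1.47 (adjusted p = 0.88 in edgeR), and a change within these bounds was not detectable at this depth.

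BIRC3 encodes an inhibitor of apoptosis protein that ubiquitinates RIPK1 in the tumour necrosis factor receptor complex (chromosome 11, 102317484 to 102339403, plus strand). BIRC3 was at 0.98, 0.91 and 0.98 FPKM in NC and at 1.20, 1.88 and 1.60 in RBM47-OE. The groups did not overlap, and the RBM47-OE libraries were spread more widely than the NC libraries. The fold in counts was 1.55 (95% interval 1.28 to 1.87, log2 fold change 0.63, standard error 0.13), just inside the study's fold of 1.5. BIRC3 was chosen on this contrast, so its interval, as that of LCN2, is not a test. The next of the 10 genes in order of fold was CXCL1 at 0.949. The fold of BIRC3 rested on 225, 274 and 245 counts in NC and on 336, 489 and 386 in RBM47-OE. With the GC offset the log2 fold change was 0.27 (standard error 0.11), a fold of 1.20. Exonic GC content of BIRC3 was 36.6%, and leaving out single libraries gave 0.49 to 0.79.

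ICAM1, an adhesion molecule bound by leukocyte integrins, had overlapping groups (chromosome 19, 10271093 to 10286615, plus strand). It was at 1.79, 1.94 and 2.10 FPKM in NC and at 1.71, 2.07 and 1.70 FPKM in RBM47-OE. The fold was 0.894 with a 95% interval of 0.742 to 1.08 (adjusted p = 0.36 in edgeR). It rested on 189, 268 and 241 counts in NC and on 220, 247 and 188 in RBM47-OE.

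Of the inhibitor genes of the pathway, NFKBIA and TNFAIP3 were not called. NFKBIA, whose product is the main cytoplasmic inhibitor of NF-kappaB, was at 7.88, 8.53 and 8.14 FPKM in NC and at 7.41, 8.90 and 7.03 in RBM47-OE. The fold of NFKBIA was 0.904 (95% interval 0.787 to 1.04, adjusted p = 0.26 in edgeR), and the gene lies on chromosome 14, 35401079 to 35404749, minus strand. With the GC offset its log2 fold change was -0.0031. TNFAIP3, which encodes the ubiquitin-editing inhibitor A20, was at 1.08, 1.23 and 1.00 FPKM in NC and at 1.01, 1.09 and 1.08 in RBM47-OE. The fold of TNFAIP3 (chromosome 6, 137867214 to 137883314, plus strand) was 0.910 (95% interval 0.749 to 1.11, adjusted p = 0.47 in edgeR), and its log2 fold change with the GC offset was -0.12. The groups of both inhibitors overlapped, and these intervals do not hold a rise of the size of LCN2.

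RELB, a subunit of the noncanonical dimer (chromosome 19, 45001461 to 45038192, plus strand), was at 4.67, 4.88 and 5.89 FPKM in NC and at 4.11, 4.29 and 4.47 in RBM47-OE. The groups did not overlap, and NC replicate 3 was the highest library. RELB held 432, 589 and 592 counts in NC and 462, 448 and 433 in RBM47-OE. RELB fell by 0.33 in log2 (standard error 0.11, adjusted p = 0.015 in edgeR), and the exact two-sided permutation test on FPKM gave p = 0.10. The call of RELB, the gene with the highest GC content of the 10, was lost with the GC offset (-0.11, adjusted p = 0.51 in edgeR). It was also lost in 3 limma fits on FPKM (adjusted p = 0.092, 0.089 and 0.18), with library totals in place of TMM (-0.27, adjusted p = 0.058), when NC replicate 3 was left out (-0.23, adjusted p = 0.17) and when RBM47-OE replicate 2 was left out (-0.32, adjusted p = 0.054).

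NFKB2, which encodes the partner of RELB (chromosome 10, 102394110 to 102402524, plus strand), was at 28.62, 28.39 and 30.27 FPKM in NC and at 29.85, 27.34 and 24.82 in RBM47-OE. The groups overlapped. The fold was 0.895 with a 95% interval of 0.803 to 0.998, and the p-value adjusted over all genes was 0.10 in edgeR. Without RBM47-OE replicate 1 NFKB2 was called lower (-0.24, adjusted p = 0.0023), and with the GC offset its log2 fold change was 0.05.

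Over all 10 genes, 3 passed edgeR's adjusted threshold of 0.05 as higher and 2 as lower, beside 19.1% and 16.9% of all genes tested. The 3 higher genes are those chosen on this contrast, so nothing follows from their number. Of the 7 genes picked by name, CXCL8 and RELB were lower and none was higher. At the study's thresholds (unadjusted p under 0.01 and fold over 1.5), 3 of the 10 were higher and 0 lower, beside 1.51% and 0.873% of all genes (245 and 142 genes, against 479 and 79 with library totals and 78 and 87 with the GC offset). Groups did not overlap in TMM-normalized CPM for 3 higher and 2 lower genes, beside 23.2% and 23.4% of all genes. With the GC offset, 2 were higher (LCN2 and IL1A) and 1 lower (CXCL8), beside 6.0% and 8.46% of all genes. The median log2 fold change of the 10 genes was -0.14 without and 0.0002 with the offset, and that of all genes tested was 0.00 under both.

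**Figure D2:**
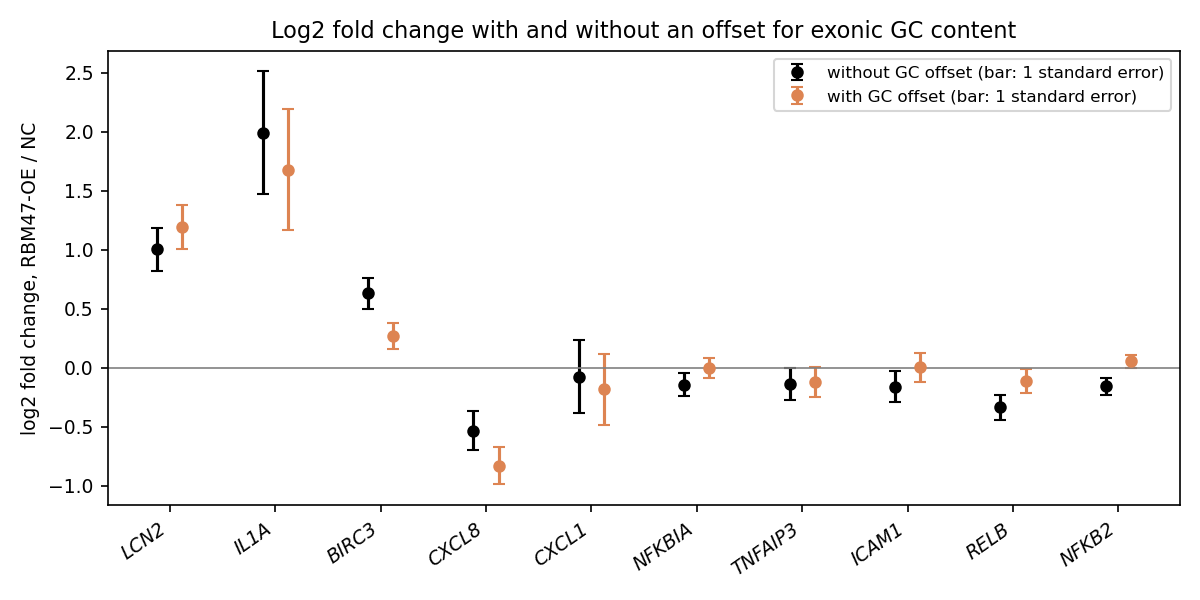
Log2 fold change (RBM47-OE over NC) of the 10 genes without (black) and with (orange) the GC offset, with bars of 1 standard error. BIRC3 moves from 0.63 to 0.27 and CXCL8 from -0.53 to -0.83, while LCN2 and IL1A stay above 1.

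The 3' UTRs of the same genes, read from the canonical GENCODE 44 transcripts, were searched for ATTTA, the core of AU-rich elements, and for TATTTAT, which contains it. ATTTA was in 8 of the 10 genes and in 71.3% of 13194 tested genes, and TATTTAT was in 7 of the 10 and in 34.7%. Among the 3 cytokine genes, CXCL8 held 9 copies of ATTTA in 1252 bases, CXCL1 held 6 in 772 and IL1A held 5 in 1142. LCN2, with a 3' UTR of 150 bases, and RELB, with 402, held none. Genes that were higher and genes that were lower in RBM47-OE were found both with and without the motif. The only lower gene without it was RELB, whose call was lost with the GC offset. Whether the motif bears on the differences was not tested. A window of each of the 3 cytokine genes is shown 5′ to 3′ with ATTTA in capitals, as examples of how the motif stands in this class of short-lived mRNA. Each was picked as the window around a TATTTAT match with the most copies of ATTTA, so the rest of the 3' UTR can hold fewer.
IL1A 3' UTR bases 604 to 630: ttttaattattATTTAtatatgtattt
CXCL8 3' UTR bases 646 to 672: acctATTTAttATTTAtgtATTTAttt
CXCL1 3' UTR bases 135 to 161: agaagtcttctATTTATTTATTTAttc

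The genes around the 10 in the pathway were taken from 4 lists, whose counts stand beside 19.1% higher and 16.9% lower genes in the whole table (6.0% and 8.46% with the GC offset). Among the NF-kappaB subunits and inhibitors, 2 of 16 tested genes were higher and 6 were lower (median log2 fold change -0.15), RELB being among the lower. REL, a subunit, rose by 0.45 (standard error 0.10, adjusted p = 0.0019 in edgeR), from 0.80, 0.89 and 0.88 FPKM to 1.08, 1.37 and 1.25. PIAS1, a SUMO ligase that restrains NF-kappaB binding, rose by 0.41. Lower were the inhibitor genes NFKBID (-0.76, adjusted p = 0.013 in edgeR) and NFKBIE (-0.34, adjusted p = 0.0089 in edgeR), and NFKBID was the gene of this list past the study's thresholds although its groups overlapped. RELA, the subunit of the most common dimer and named here after its value was seen, was at 16.93, 17.37 and 17.97 FPKM in NC and at 15.92, 15.23 and 14.64 in RBM47-OE (-0.26, adjusted p = 0.0054 in edgeR). With the GC offset REL, NFKBID, NFKBIE and RELA did not pass (adjusted p = 0.46, 0.10, 0.34 and 0.39 in edgeR). Under it 1 gene of this list was higher (PIAS1) and 1 lower (NFKB1, named after its value was seen). Without the offset the lower count fell from 6 to 3 when any single NC library was left out. It fell to 2 when RBM47-OE replicate 2 was left out.

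In the list of IKK and upstream signalling genes, 12 of 36 tested genes were higher and 10 lower (median 0.09). The higher count includes BIRC3, which was chosen on this contrast, so nothing follows from its part. BIRC2, the close relative of BIRC3 beside it on chromosome 11, was at 7.13, 6.98 and 6.72 FPKM in NC and at 9.60, 11.24 and 10.52 in RBM47-OE. Its groups did not overlap, and its log2 fold change of 0.52 (adjusted p = 4.9e-05 in edgeR) was 0.21 with the GC offset (adjusted p = 0.029). TAB2, an adaptor of the kinase MAP3K7, rose by 0.51 (adjusted p = 5.4e-05 in edgeR). IKBKG, the regulatory subunit of the IKK complex, fell by 0.48 (adjusted p = 0.0055 in edgeR), TRAF2, an adaptor that recruits BIRC2 and BIRC3 to receptors, fell by 0.44 (adjusted p = 4.3e-04), and the kinase gene IKBKE fell by 0.43 (adjusted p = 0.033) with overlapping groups. With the GC offset IKBKG (-0.27, adjusted p = 0.12 in edgeR) and IKBKE (-0.25, adjusted p = 0.26 in edgeR) did not pass. Under it 3 genes of the list were higher (BIRC2, TAB2 and TRADD) and 3 lower (TRAF2, UBE2N and UBE2V1), of which TRADD, UBE2N and UBE2V1 are named after their values were seen. Without the offset the higher count fell from 12 to 6 when NC replicate 2 was left out and to 7 when RBM47-OE replicate 3 was.

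Of the receptors and their ligands, 3 of 19 tested genes (of 32) were higher and 5 lower (median 0.09). The higher count includes IL1A, which was chosen on this contrast and passed the filter through RBM47-OE, so nothing follows from its part. TLR5, the receptor of bacterial flagellin, was at 0.14, 0.15 and 0.18 FPKM in NC and at 0.26, 0.30 and 0.28 in RBM47-OE (log2 fold change 0.76, adjusted p = 0.011 in edgeR), from 33 to 46 counts and 70 to 79 counts per library. The difference was as large with the GC offset (0.76, adjusted p = 0.026 in edgeR). IL18, a cytokine gene of epithelium, rose by 0.38 (adjusted p = 5.4e-04 in edgeR), with 0.11 under the GC offset. TNFRSF12A, NGFR and CD40, all receptor genes of the tumour necrosis factor family, fell by 0.37, 0.33 and 0.26 (adjusted p = 3.9e-04, 0.0051 and 0.032 in edgeR), and with the GC offset 0 genes of the list were lower. In fits without the offset the lower count fell from 5 to 3 when NC replicate 2 was left out and to 2 when NC replicate 3 was. The median in the fit that left out NC replicate 3 was -0.07. TNF itself had 2, 0 and 0 counts in NC and 5, 0 and 0 in RBM47-OE and was not tested.

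Among 53 other NF-kappaB target genes, 33 were tested, of which 4 were higher and 7 lower (median -0.12). This list shares genes with the lists above, so the counts of the 4 lists are not separate. REL (higher) and NFKBIE (lower) are counted here and among the subunits and inhibitors, and so is NFKB1 with the GC offset. SLPI, which encodes a secreted protease inhibitor of epithelia, was at 1.15, 1.76 and 1.96 FPKM in NC and at 3.29, 2.67 and 4.49 in RBM47-OE. The groups did not overlap. SLPI rose by 1.01 in log2 (standard error 0.27, adjusted p = 0.0045 in edgeR), and by 1.13 with the GC offset (adjusted p = 0.0066 in edgeR). The rise rested on 21, 42 and 39 counts in NC and on 73, 55 and 86 in RBM47-OE. TNFAIP8, an inhibitor of apoptosis, rose by 0.49 (adjusted p = 3.2e-04 in edgeR). ZC3H12A, an RNase that degrades inflammatory mRNAs, and CXCL16, a transmembrane chemokine, fell by 0.56 and 0.33 (adjusted p = 0.0040 and 0.0018 in edgeR), and neither passed with the GC offset (adjusted p = 0.10 and 0.11). With the offset 3 were higher and 2 lower. Of the 3, SOD2 (named after its value was seen) had no matched GC content, so its counts received no GC adjustment (0.22 in both fits). In fits without the offset the lower count of 7 became 3 when NC replicate 1 was left out and 4 when NC replicate 3 was. It became 11 when RBM47-OE replicate 1 was left out.

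**Figure D3:**
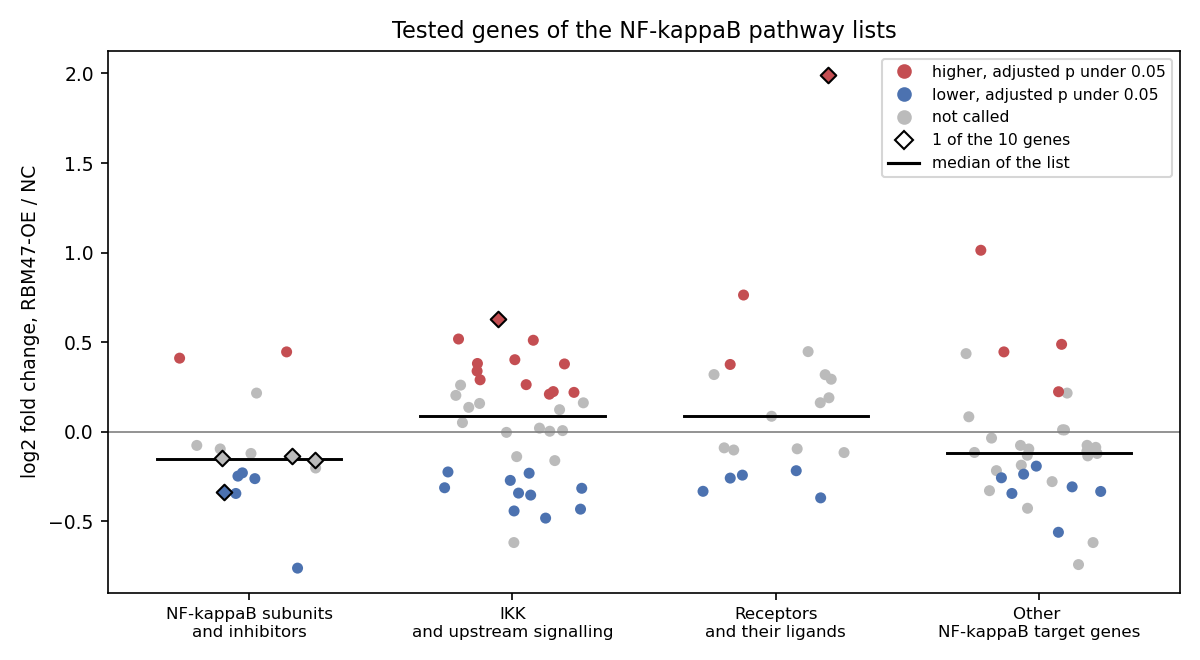
Log2 fold change (RBM47-OE over NC) of each tested gene in 4 NF-kappaB pathway lists, coloured by call, with black lines at list medians and diamonds for genes of the 10. The medians are -0.15, 0.09, 0.09 and -0.12, and IL1A (1.99) is the highest point, with SLPI (1.01) the highest of the other target genes.

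The profiles over the 6 libraries were then compared with those of 14066 genes, as log2 CPM less the NC mean, by root mean square distance. The gene nearest to LCN2 was SLPI, at 0.166, followed by RP11-119F7.5 at 0.234 and KCTD16 at 0.240. LCN2 stood at 0.81, 0.65 and 1.42 in the RBM47-OE libraries and SLPI at 0.97, 0.61 and 1.38, with replicate 3 highest and replicate 2 lowest in both. The genes nearest to BIRC3 were GCC2 at 0.0480, ZNF770 at 0.0505 and CCDC186 at 0.0609, of which none is on the pathway lists. BIRC3 stood at 0.29, 0.87 and 0.68 in the RBM47-OE libraries and GCC2 at 0.32, 0.77 and 0.63, with replicate 1 lowest in both. Exonic GC content of these 3 genes was 37.7%, 36.3% and 34.7%, beside 36.6% in BIRC3, while that of the genes nearest to LCN2 (58.0%) was 52.2% in SLPI, 33.0% in RP11-119F7.5 and 37.6% in KCTD16. These distances are a description over 6 libraries that share their normalization. SLPI held only 21 to 86 counts per library, and in NC replicate 1 it stood at -0.43, beside -0.14 for LCN2.

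**Figure D4:**
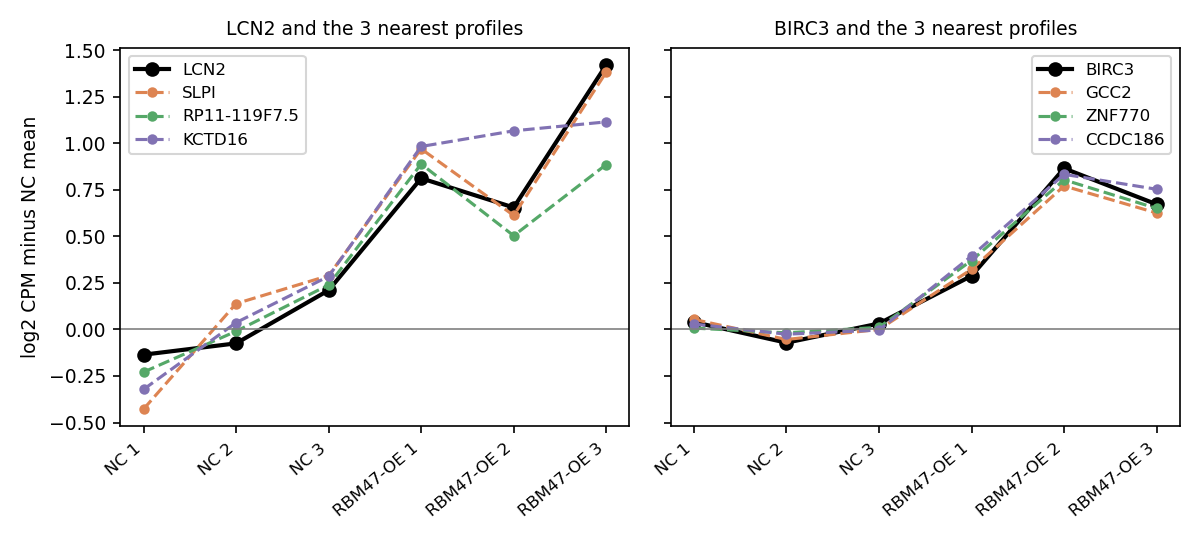
Log2 CPM less the NC mean in each of the 6 libraries for LCN2 (left) and BIRC3 (right), in black, with the 3 genes of nearest profile in colour. LCN2 and SLPI peak in RBM47-OE replicate 3 at 1.42 and 1.38, and BIRC3 and its neighbours peak in replicate 2.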

How the data were processed

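RNA of 6 HCT116 libraries was analysed. The deposited counts per gene, not normalized, are of uniquely mapped reads that the authors trimmed, filtered and placed on GRCh38 using HISAT2. FPKM values (fragments per length and library size) were deposited by the authors from the same alignments. The libraries were stranded per the labels and methods. The counting tool, the annotation release and the strand setting of the counting are not given in the sources used here, so values of overlapping or antisense genes are uncertain.

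Counts were tested with edgeR 4.0.16 in R 4.3.3 (filterByExpr with minimum count 10 and minimum total 15, TMM, quasi-likelihood test, Benjamini-Hochberg over 16260 genes), NC against RBM47-OE. The members and gene lists were chosen with earlier results of these data known. Intervals of folds are 95% t intervals. The GC offset is a loess fit (span 0.3) of each library's log2 CPM, as the difference from the mean of all libraries, on exonic GC content (GENCODE release 44). It removes any change that follows GC content, and a gene with no matched GC content received no such adjustment. Counts limit the precision of low genes. Some 3' UTR sequences of these genes are not reported here.

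Named were the 10 genes, the genes of each list past the study's thresholds, up to 3 in each direction with the largest change among those with an adjusted p under 0.05 and mean log2 CPM of at least 0, and the 3 genes of nearest profile to LCN2 and BIRC3. Other names are marked. Alternatives were DESeq2 1.42.0, limma 3.58.1 on log2(FPKM + 1) and log2(FPKM + 0.1), other normalizations and filters, a replicate block, the GC offset and leaving out each library.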

Additional observations from a re-analysis of the deposited data

How the results depend on the processing

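Fold changes kept their direction for LCN2, IL1A, BIRC3, CXCL8, NFKBIA, TNFAIP3 and RELB in all 18 alternatives (17 for IL1A, which had fewer than 10 counts in some libraries). Their size did not always hold. The log2 fold change of IL1A ran from 0.22 (limma on log2(FPKM + 1)) to 2.15, with 1.10 in limma on log2(FPKM + 0.1). That of BIRC3 ran from 0.26 (GC offset with replicate block) to 0.79. Where a value moved, the cause was not tested. CXCL1 was between -0.18 and 0.0053 on leaving out single libraries, highest without RBM47-OE replicate 2. ICAM1 was at 0.0036 with the GC offset and 0.0063 with the GC offset and replicate block, and NFKB2 at 0.053 and 0.052. The receptor list's median was -0.0013 with at least 10 counts in every library, and -0.071 (without NC replicate 3) to 0.16 on leaving out single libraries. CXCL8's adjusted p ranged from 0.00019 to 0.071 (limma without a filter) and RELB's reached 0.52. Of the 10 genes, 2 were higher in both DESeq2 fits, with at least 10 counts in every library and in limma without a filter, against 3 in the main fit. With at least 10 counts in every library IL1A was not tested, and in limma without a filter BIRC3 was not called (0.38, standard error 0.11). In the DESeq2 fits the standard error of IL1A was 0.69 (filtered genes) and 0.75 (all genes), against 0.52 in the main fit.

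Library totals gave 479 higher and 79 lower genes at the study's thresholds, 1 lower gene of the 10, 6 lower in the IKK list, 5 higher and 2 lower among the receptors and 4 lower other targets. The GC offset gave 975 higher and 1375 lower genes at an adjusted p under 0.05 and 78 and 87 at the study's thresholds, 1 lower gene of the 10, 1 higher and 1 lower subunit or inhibitor, 3 and 3 in the IKK list, 0 lower receptors and 2 lower other targets.

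The replicate numbers did not pair the libraries (correlations of deviations -0.060, -0.015 and -0.016 for equal numbers). The replicate block gave 2957 higher and 2510 lower genes, 3 higher and 2 lower of the 10, and changed no call of the 10. The block with the GC offset gave 1024 and 1427 genes, 87 higher at the study's thresholds, 1 lower gene of the 10, 1 and 1 subunits or inhibitors, 4 and 3 in the IKK list, 0 lower receptors and 2 lower other targets.

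limma on log2(FPKM + 1) gave 1586 lower genes, 43 and 28 at the study's thresholds, 1 lower gene of the 10, 3 lower subunits or inhibitors, 6 lower in the IKK list and 1 lower receptor. With a pseudocount of 0.1 these were 1599, 1, 3, 6 and 1 (lower genes, lower of the 10, subunits, IKK list, receptors). Without a filter limma gave 1410 and 908 genes, 42 and 27 at the study's thresholds, 0 lower of the 10, 1 and 0 subunits or inhibitors, 3 and 3 in the IKK list, 1 lower receptor and 1 and 1 other targets.

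Leaving out single libraries gave 2090 to 3864 higher and 1675 to 3508 lower genes, and 143 to 639 and 121 to 213 at the study's thresholds. Of the 10 genes 3 to 3 were higher and 1 to 3 lower. Subunits and inhibitors gave 2 to 2 and 2 to 7, the IKK list 6 to 13 and 7 to 11, the receptors 3 to 4 and 2 to 5, and the other targets 3 to 4 and 3 to 11. With 3 libraries in each group, genes near IL1A's depth could be read only to within its interval.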

Other observations

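Of the genes in the 4 pathway lists, 24 held too few counts to be tested. Groups did not overlap in counts for 5 of the 24, with 5 lower and 0 higher in RBM47-OE, beside 1.94% lower and 1.88% higher of all 12231 genes not tested. That share is over untested genes of any depth and is not matched to the depth of the 24, so the shares are not a like comparison. The genes below are named after their values were seen, their counts are few, and none has a test. CSF2, which encodes a colony-stimulating factor, had 6, 9 and 10 counts in NC and 1, 1 and 2 in RBM47-OE. CCL20, a chemokine of epithelium, had 14, 6 and 3 counts in NC and 1, 2 and 1 in RBM47-OE. CCL5, a chemokine of lymphocytes, had 5, 7 and 18 counts in NC and 0, 1 and 4 in RBM47-OE. LTA, a ligand of the tumour necrosis factor family, had 5, 4 and 4 counts in NC and 3, 2 and 0 in RBM47-OE, and SAA2, an acute-phase gene, had 1, 2 and 1 counts in NC and 0 in each RBM47-OE library. Others overlapped, such as the chemokine gene CXCL2 with 8, 5 and 9 counts in NC and 9, 9 and 5 in RBM47-OE, and its receptor gene CXCR2 with 0 in each NC library and 5, 0 and 4 in RBM47-OE.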
